A study of Caenorhabditis elegans with 16 samples.

Results

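The genes described here are 8 protein-coding genes of the nematode Caenorhabditis elegans: nnt-1, C32E8.9, dod-3, lea-1, hil-1, cnc-11, col-135 and C10C5.4. They were chosen by name, as known outputs of insulin signalling or as genes whose level differed between daf-16; ets-4 and ets-4 mutants at 4 °C, so their values in that contrast are a description and were not tested. They make up 8 of the 20447 genes in the count table. RNA was sequenced from whole adult worms of 4 strains, each in 2 replicates at 4 °C and 2 at 20 °C, giving 16 libraries of about 1000 animals each. The strains were 2 double mutants, the ets-4 single mutant and wt (N2). The double mutant daf-16; ets-4 combined daf-16(mu86) on chromosome I with ets-4(rrr16) on chromosome X. In pqm-1; ets-4 the second mutation was pqm-1(ok485) on chromosome II, and the single mutant had ets-4(rrr16) only. The names daf-16 double mutant and pqm-1 double mutant refer to these strains. Both double mutants therefore carried the ets-4 allele of the single mutant, and no strain lacked daf-16 or pqm-1 alone. All animals grew at 20 °C, and those for the cold groups spent 2 h at 10 °C and then 24 h at 4 °C.

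DAF-16 is the worm FOXO transcription factor that acts downstream of the insulin receptor DAF-2. When insulin signalling is low, DAF-16 enters the nucleus and raises genes of stress resistance, defence and metabolism. PQM-1 is a zinc finger transcription factor that is also under the control of insulin signalling, and ETS-4 is a transcription factor of the ETS family.

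The 8 genes have different roles. nnt-1 encodes the mitochondrial nicotinamide nucleotide transhydrogenase, which makes NADPH, and C32E8.9 encodes a protein of the enoyl-CoA hydratase family. lea-1 encodes a late embryogenesis abundant protein, a family known for protection during desiccation. hil-1 encodes a linker histone of the H1 kind, col-135 a cuticle collagen and cnc-11 a caenacin, a family of small peptides of antifungal defence. dod-3 was named as a gene downstream of DAF-16, and C10C5.4 encodes a protein of the aminoacylase family.

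On WBcel235 the genes lay on 4 chromosomes, 4 of them on chromosome V. These were dod-3 (WBGene00016052, 2730622 to 2731098), lea-1 (WBGene00002263, 10011923 to 10028168), hil-1 (WBGene00001852, 14949777 to 14952799) and cnc-11 (WBGene00044900, 1442342 to 1442917). Chromosome IV held col-135 (WBGene00000708, 15129655 to 15131797) and C10C5.4 (WBGene00007508, 9378552 to 9380452). C32E8.9 (WBGene00016325, 3794556 to 3798068) was on chromosome I, 6.95 Mb from daf-16. nnt-1 (WBGene00003778, 6122311 to 6127554) was on chromosome X, 0.391 Mb from ets-4, so in every ets-4 mutant it lay close to the mutated locus. Exons of nnt-1 shared 27 bases with C15H9.9 and exons of lea-1 shared 19 bases with acl-2, each on the opposite strand. The sources used here do not state whether strand was used in counting.

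Totals ran between 36049588 and 43039567 counts at 4 °C and between 32046029 and 48770269 at 20 °C. Single libraries held as few as 0 counts of cnc-11, 1 of dod-3, 35 of nnt-1 and 72 of C32E8.9, so counting error was largest for the first 3 of these genes. At 4 °C the mutated genes were lower in the strains labelled as mutant. daf-16 had 104 and 116 CPM (counts scaled to library size) in daf-16; ets-4, against 247 and 226 CPM in ets-4. ets-4 had 4.35 and 8.83 CPM in ets-4, against 60.3 and 84.6 CPM in wt. At 20 °C the same check failed for ets-4 and did not separate the strains for daf-16. The daf-16 transcript reached 107 and 175 CPM where the label was daf-16; ets-4, against 163 and 185 CPM where it was ets-4, and the ets-4 transcript reached 76.9 and 159 CPM where the label was ets-4, against 26.3 and 25.9 CPM in wt, so it was higher where the label was mutant. The pqm-1 transcript was lower in pqm-1; ets-4 than in ets-4 at both temperatures. It had 5.98 and 16.2 CPM against 20.4 and 32.8 CPM at 20 °C, and 150 and 143 CPM against 221 and 269 CPM at 4 °C. Counts over a whole gene need not show a partial deletion, and the deleted parts were not examined. For daf-16 and ets-4, directions at 20 °C therefore rest on the labels. The markers of sperm, oocytes, intestine, epidermis, muscle and neurons were all detected, and the sum of 7 sperm genes varied most, between 2.21 and 112 CPM over the 16 libraries.

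In the cold, C32E8.9, col-135, nnt-1 and cnc-11 were each far lower in daf-16; ets-4 than in the other strains, lea-1 and hil-1 were lower by a smaller factor, and C10C5.4 was higher. C32E8.9 had 2.05 and 2.22 CPM in daf-16; ets-4 at 4 °C, against 12.61 and 13.8 CPM in ets-4. col-135 had 7.06 and 5.60 CPM in the daf-16 double mutant, against 49.9 and 35.5 CPM in ets-4. nnt-1 had 0.997 and 1.36 CPM in the daf-16 double mutant, against 6.49 and 6.12 CPM in ets-4. For these 3 genes the daf-16; ets-4 libraries lay below every library of the other 3 strains at 4 °C. cnc-11, a gene of low count, had 0.456 and 0.499 CPM (16 and 18 counts) in the daf-16 double mutant, against 2.16 and 2.28 CPM (77 and 90 counts) in ets-4. hil-1 had 13.5 and 14.4 CPM in the daf-16 double mutant, against 26.8 and 31.3 CPM in ets-4. lea-1, the most abundant of the 8 genes, had 266 and 264 CPM in the daf-16 double mutant, against 451.5 and 467 CPM in ets-4. These 3 genes were also lower in daf-16; ets-4 than in every other library at 4 °C.

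C10C5.4 went the other way, with 95.7 and 90.2 CPM in daf-16; ets-4 and 46.9 and 43.8 CPM in ets-4 at 4 °C. dod-3 was close to the limit of counting, with 12 and 3 counts in daf-16; ets-4 and 6 and 2 counts in ets-4, and these groups overlapped. The name DAF-16 dependent genes therefore covers 6 genes that were lower, 1 that was higher and 1 that did not separate in this contrast. The contrast had a part in choosing the genes, and the share of all genes whose libraries separate in this way was not counted. The fitted log2 fold changes of daf-16; ets-4 over ets-4 at 4 °C were −2.63 for C32E8.9, −2.75 for col-135, −2.41 for nnt-1, −2.22 for cnc-11, −1.06 for hil-1, −0.80 for lea-1, 1.03 for C10C5.4 and 0.92 for dod-3. Standard errors were between 0.07 for C10C5.4 and 0.62 for dod-3. Of 14571 genes tested in that contrast, 3.86% passed an adjusted p of 0.05. The worms were sequenced whole, so fewer cells of a type and less RNA per cell cannot be told apart.

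**Figure D1:**
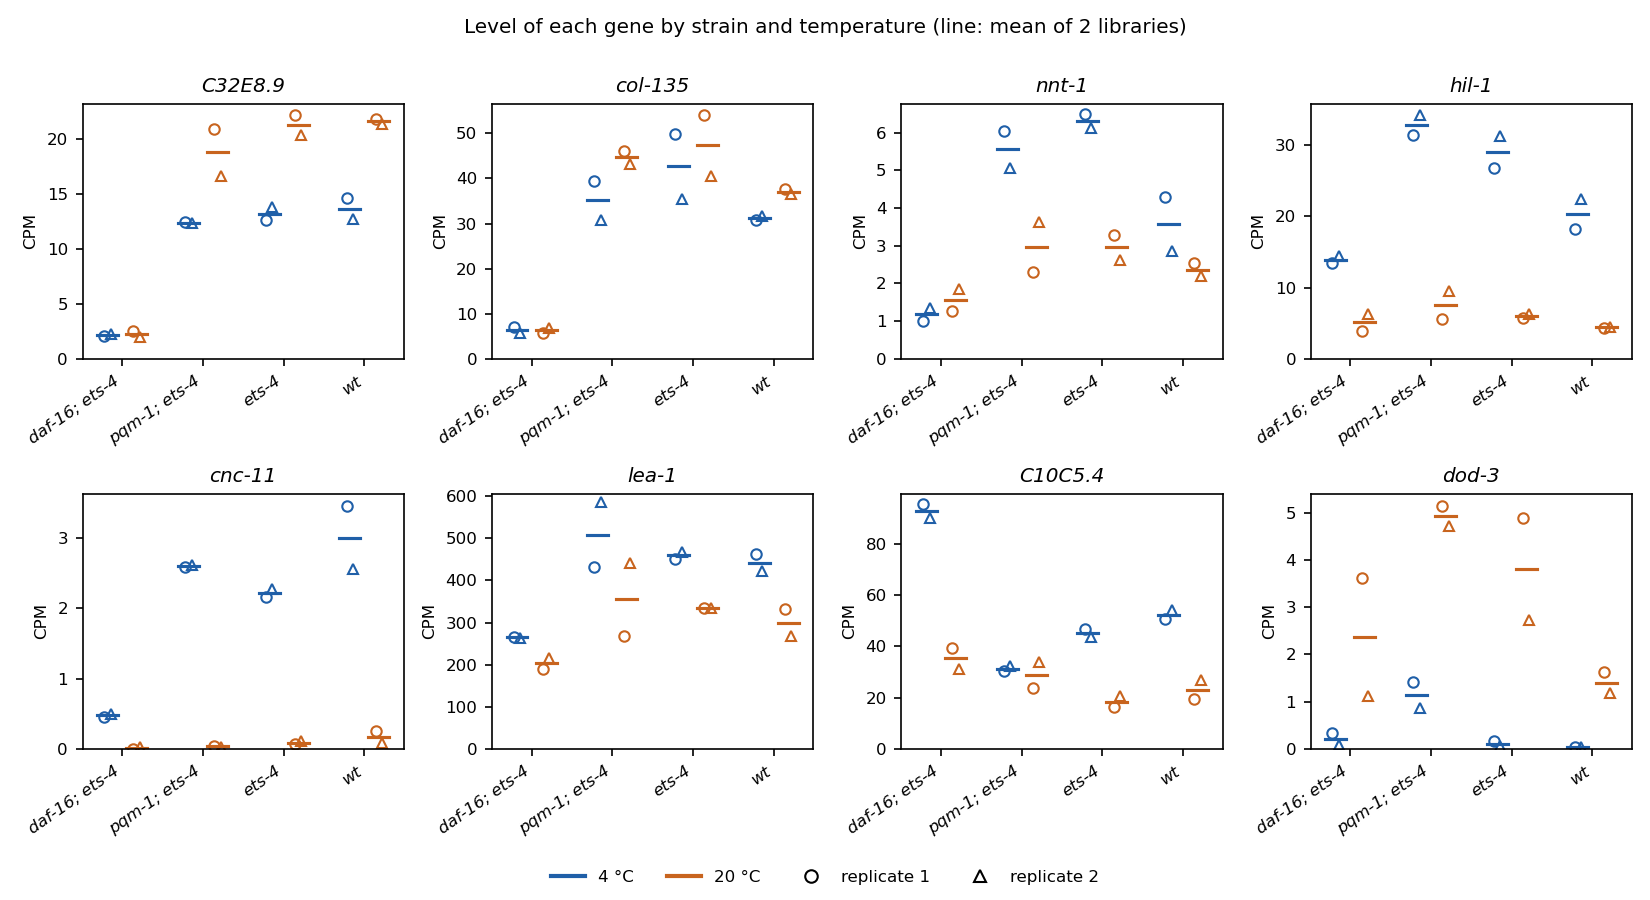
CPM of each of the 8 genes in all 16 libraries, by strain, with 4 °C in blue and 20 °C in orange, circles for replicate 1, triangles for replicate 2 and a line at the mean of the 2 libraries. The daf-16; ets-4 libraries of C32E8.9 lie between 1.96 and 2.50 CPM at both temperatures, below all libraries of the other strains, while C10C5.4 at 4 °C is highest in daf-16; ets-4.

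The libraries at 20 °C had no part in the choice by the 4 °C contrast, and asked whether the same genes differed without cold. The genes were chosen with earlier results of these data known, so tests and ranks at 20 °C are not fully independent of the choice. C32E8.9 and col-135 fell in daf-16; ets-4 relative to ets-4 at 20 °C as well. C32E8.9 had 2.50 and 1.96 CPM in the daf-16 double mutant, against 22.2 and 20.4 CPM in ets-4, 20.95 and 16.6 CPM in pqm-1; ets-4 and 21.9 and 21.4 CPM in wt. Its level in daf-16; ets-4 was 10.8% of the mean of the other 3 strains, and no libraries overlapped. The log2 fold change over ets-4 was −3.27 ± 0.14 (SE), a 9.66-fold lower level, with an adjusted p of 2.04e-05 in edgeR's quasi-likelihood test with the replicate number as a block. col-135 had 5.68 and 6.85 CPM in the daf-16 double mutant, against 54.1 and 40.5 CPM in ets-4, 46.1 and 43.3 CPM in pqm-1; ets-4 and 37.6 and 36.5 CPM in wt. This collagen stood at 14.6% of the mean of the other strains, again with no overlap. Its log2 fold change over ets-4 was −2.89 ± 0.15 (SE), with an adjusted p of 7.99e-05 in the same edgeR fit.

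These 2 genes had the smallest and second smallest p of all 15405 genes tested in daf-16; ets-4 against ets-4 at 20 °C. They were 2 of the 7 genes of the group that could be tested, all calls being lower, whereas 4.34% of all genes were called in either direction and 0.695% as lower. Without the block, edgeR called 4 genes in all, and C32E8.9 and col-135 were among them, each with an adjusted p of 0.00117. They also remained called without each of the 4 libraries of these strains in turn, with log2 fold changes between −3.40 and −3.16 for C32E8.9 and between −3.12 and −2.69 for col-135. The count of all genes called was far less steady, being 669 in the full fit, 6 without ets-4 replicate 1, 15 without ets-4 replicate 2 and 2287 without daf-16; ets-4 replicate 2.

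Against the other 2 strains, which use the same daf-16; ets-4 libraries, edgeR called the same 2 genes, and DESeq2 also called C10C5.4 against wt. C32E8.9 had a log2 fold change of −3.29 over wt and of −3.10 over pqm-1; ets-4, with adjusted p of 1.94e-05 and 2.59e-05 in edgeR. col-135 had −2.54 over wt and −2.83 over pqm-1; ets-4, with adjusted p of 1.17e-04 and 6.22e-05. Over all genes 37.9% were called in daf-16; ets-4 against wt, but only 0.260% in daf-16; ets-4 against pqm-1; ets-4.

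Markers of tissues differed between the strains at 20 °C. The 7 sperm genes summed to 58.35 and 73 CPM in the daf-16 double mutant, against 7.39 and 15.3 CPM in ets-4. The 5 epidermis and cuticle genes summed to 1970 and 1942 CPM in the daf-16 double mutant, against 1125 and 1239 CPM in ets-4, and the 5 intestinal genes to 1332 and 1538 CPM, against 895 and 1047 CPM. Nearly all of the epidermis and cuticle sum was col-19, at 1965 and 1932 CPM for daf-16; ets-4. Most of the intestinal sum was act-5 and asp-1, and ges-1 was lower, at 17.79 and 17.8 CPM against 18.56 and 20.93 CPM in ets-4. The muscle sum was higher in daf-16; ets-4 too, at 3207 and 4201 CPM against 2823 and 2781 CPM. The neuron sum differed little, at 249 and 266.5 CPM against 240.1 and 245.2 CPM, and none of its genes was called. The oocyte and eggshell sum was instead lower in daf-16; ets-4, with 5019 and 4581 CPM beside 5872 and 5126 CPM for ets-4. col-135 and C32E8.9 were thus lower in daf-16; ets-4, where the oocyte and eggshell sum was lower and the other sums were higher, that of neurons only slightly. In pqm-1; ets-4 the sums were 1679 and 1929 CPM for epidermis and cuticle and 26.9 and 112 CPM for sperm. They were 4934 and 3719 CPM for oocytes and eggshell in that strain. The part of cell makeup in the results was not tested.

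**Figure D2:**
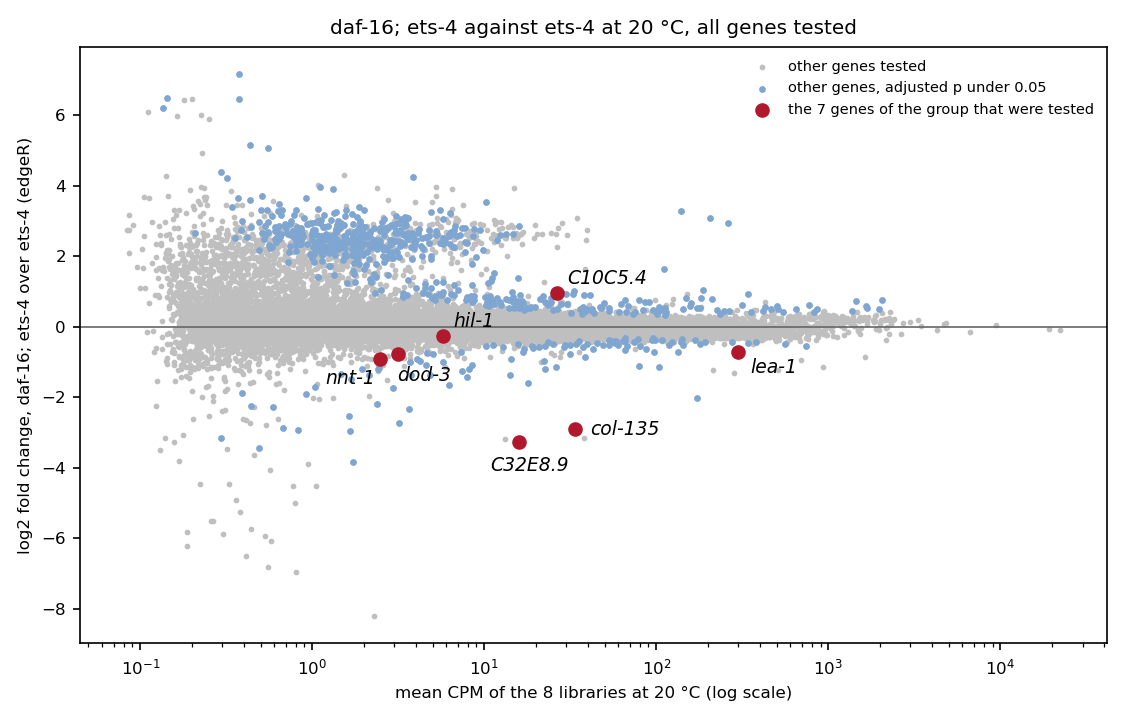
Log2 fold change of daf-16; ets-4 over ets-4 at 20 °C against the mean CPM of the 8 libraries at 20 °C, on a log axis, for all 15405 genes tested, with genes past an adjusted p of 0.05 in blue and the 7 tested genes of the group in red. C32E8.9 at −3.27 and col-135 at −2.89 lie well below the band of genes of similar level, and lea-1, nnt-1, dod-3 and hil-1 lie closer to 0.

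edgeR did not call the other 5 tested genes at 20 °C. nnt-1 had 1.27 and 1.86 CPM in the daf-16 double mutant, against 3.28 and 2.63 CPM in ets-4, with a log2 fold change of −0.92 ± 0.30 (SE) and an adjusted p of 0.106 in edgeR. lea-1 had 189 and 216 CPM in the daf-16 double mutant, against 335 CPM in both ets-4 libraries, with a log2 fold change of −0.73 ± 0.23 (SE) and an adjusted p of 0.139. Both genes were lower in daf-16; ets-4 in each library, but the difference did not pass the test over all genes. C10C5.4 had 39.5 and 31.4 CPM in the daf-16 double mutant, against 16.2 and 20.6 CPM in ets-4, with a log2 fold change of 0.97 ± 0.22 (SE) and an adjusted p of 0.0636. C10C5.4 was called by DESeq2, without each daf-16; ets-4 library in turn and in the fit of all 16 libraries with the block, and lea-1 in the last of these only. dod-3 was called without daf-16; ets-4 replicate 1. dod-3 overlapped between strains, with 3.61 and 1.12 CPM in daf-16; ets-4 and 4.89 and 2.74 CPM in ets-4. hil-1 overlapped as well, with 3.92 and 6.32 CPM in daf-16; ets-4 and 5.68 and 6.29 CPM in ets-4, a log2 fold change of −0.25 ± 0.21 (SE). cnc-11 was not tested at 20 °C, where the 8 libraries held between 0 and 10 counts.

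In pqm-1; ets-4 against ets-4 at 4 °C, which asked whether the genes also differed without PQM-1, dod-3 rose and C10C5.4 fell. dod-3 had 1.42 and 0.864 CPM (59 and 35 counts) in the pqm-1 double mutant, against 0.168 and 0.051 CPM (6 and 2 counts) in ets-4. The log2 fold change was 3.41 ± 0.50 (SE), with an adjusted p of 0.0103 in edgeR. C10C5.4 had 30.2 and 32.5 CPM in the pqm-1 double mutant, against 46.9 and 43.8 CPM in ets-4, a log2 fold change of −0.54 ± 0.07 (SE) with an adjusted p of 0.00755. C10C5.4 thus lay below ets-4 in pqm-1; ets-4 and above it in daf-16; ets-4, with no overlap in either contrast. edgeR did not call the remaining 6 genes, so 2 of 8 genes passed, whereas 5.90% of all genes did.

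Both calls depended on the design. Without the block, the adjusted p was 0.485 for dod-3 and 0.179 for C10C5.4 in edgeR. dod-3 was not called without ets-4 replicate 1 (adjusted p = 0.0685) or without ets-4 replicate 2 (0.111), and C10C5.4 was not called without ets-4 replicate 1 (0.0514) or in the fit of all 16 libraries with the block (0.154).

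C32E8.9 and col-135 were not called in pqm-1; ets-4 against ets-4 at either temperature. C32E8.9 had 12.5 and 12.3 CPM in pqm-1; ets-4 at 4 °C, against 12.61 and 13.8 CPM in ets-4, with a log2 fold change of −0.10 ± 0.11 (SE). For col-135 the log2 fold changes were −0.28 ± 0.12 (SE) at 4 °C and −0.06 ± 0.13 (SE) at 20 °C. At 20 °C edgeR called 0 of the 7 tested genes in this contrast, while 9.33% of all genes were called. Under an unadjusted p of 0.05 were 1 of the 7, C10C5.4, and 4497 of all 15405 genes tested. DESeq2 called C10C5.4. C10C5.4 there had 23.7 and 33.97 CPM in the pqm-1 double mutant, against 16.2 and 20.6 CPM in ets-4.

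**Figure D3:**
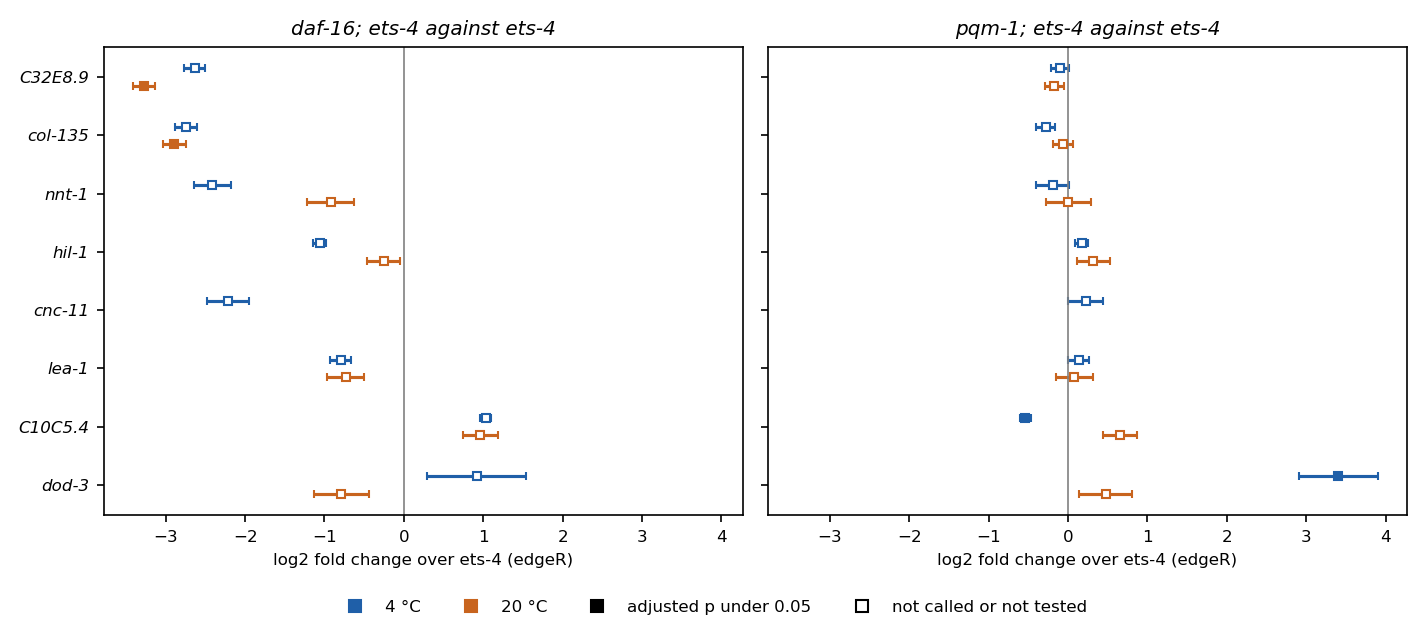
Log2 fold change over ets-4, with the standard error as a bar, of each of the 8 genes in daf-16; ets-4 (left) and pqm-1; ets-4 (right), with 4 °C in blue above 20 °C in orange and filled squares for an adjusted p under 0.05. The values for daf-16; ets-4 at 4 °C are a description and carry no test. C32E8.9 and col-135 lie between −3.27 and −2.63 in daf-16; ets-4 and between −0.28 and −0.06 in pqm-1; ets-4.

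The contrast of ets-4 with wt asked whether the genes differed with the ets-4 allele alone. In ets-4 against wt at 4 °C, nnt-1 had 6.49 and 6.12 CPM in ets-4, against 4.30 and 2.85 CPM in wt, a log2 fold change of 0.82 ± 0.21 (SE) with an adjusted p of 0.0450 in edgeR. hil-1 had 26.8 and 31.3 CPM in ets-4, against 18.3 and 22.4 CPM in wt, a log2 fold change of 0.50 ± 0.08 (SE) with an adjusted p of 0.0101. Both were higher in ets-4 than in wt without overlap, and 2 of 8 genes were called, whereas 9.70% of all genes were. Neither call survived without the block, where the adjusted p was 0.286 for nnt-1 and 0.261 for hil-1, nor in the fit of all 16 libraries, where it was 0.126 and 0.101. nnt-1 was also not called without ets-4 replicate 1 (adjusted p = 0.174), ets-4 replicate 2 (0.252) or wt replicate 2 (0.322), and hil-1 was not called without ets-4 replicate 2 (0.0998). At an unadjusted p of 0.05 in edgeR, 4 of the 8 genes passed at 4 °C: nnt-1, hil-1, col-135 and C10C5.4. So did 4565 of all 14571 genes tested. DESeq2 called col-135 beside nnt-1 and hil-1. These 4 °C contrasts share the ets-4 libraries with the contrast that chose the genes.

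At 20 °C edgeR called 0 of 7 genes in ets-4 against wt, and 1.29% of all genes were called. Under an unadjusted p of 0.05 were 2 of the 7, dod-3 and col-135, and 2439 of all 15405 genes tested. dod-3 had 4.89 and 2.74 CPM in ets-4, against 1.63 and 1.18 CPM in wt, a log2 fold change of 1.41 ± 0.36 (SE) with an adjusted p of 0.122, and DESeq2 called it. C32E8.9 differed by −0.02 ± 0.12 (SE) on the log2 scale between ets-4 and wt at 20 °C.

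The genes differed in their response to cold, and hil-1 and cnc-11 were called as higher and dod-3 as lower in every strain. The comparison of 4 °C with 20 °C within each strain used all 16 libraries without a block, and 4 of 8 genes were called in daf-16; ets-4, 5 in pqm-1; ets-4, 6 in ets-4 and 5 in wt. The shares over all genes were 38.5% in daf-16; ets-4, 37.1% in pqm-1; ets-4, 33.3% in ets-4 and 30.7% in wt. The libraries of daf-16; ets-4 and ets-4 at 4 °C enter these comparisons and also chose the genes.

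hil-1, the linker histone, rose in the cold in every strain. It had 13.5 and 14.4 CPM at 4 °C, against 3.92 and 6.32 CPM at 20 °C, in the daf-16 double mutant. In wt it had 18.3 and 22.4 CPM at 4 °C, against 4.33 and 4.46 CPM at 20 °C. The log2 fold changes were 1.43 ± 0.25 in the daf-16 double mutant, 2.11 ± 0.25 in pqm-1; ets-4, 2.28 ± 0.26 in ets-4 and 2.21 ± 0.26 in wt (SE), with the largest adjusted p, 0.00108 in edgeR, in the daf-16 double mutant.

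cnc-11 rose in the cold in every strain by edgeR. It was close to absent at 20 °C, with 0 and 1 counts in the daf-16 double mutant, 2 and 1 counts in pqm-1; ets-4, 2 and 5 in ets-4 and 10 and 3 in wt. At 4 °C it had 16 and 18 counts in the daf-16 double mutant, 108 and 106 counts in pqm-1; ets-4, 77 and 90 in ets-4 and 119 and 96 in wt. The ratio of 4 °C over 20 °C, with a 95% exact binomial interval for counting error alone, was 39.9 (6.69 to 1620) in the daf-16 double mutant, 78.0 (26.3 to 381) in pqm-1; ets-4, 24.5 (11.7 to 62.0) in ets-4 and 18.5 (10.6 to 35.2) in wt. The intervals overlap, and the cold level in the daf-16 double mutant stayed at 18.3% of the mean of the other strains.

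dod-3 fell in the cold in every strain. It had 1 count in each wt library at 4 °C, against 113 counts over both libraries at 20 °C. The ratio of 20 °C over 4 °C was 9.89 (5.84 to 18.1) in the daf-16 double mutant, 4.32 (3.45 to 5.455) in pqm-1; ets-4, 34.02 (17.03 to 79.6) in ets-4 and 50.6 (13.7 to 423) in wt, with the same kind of interval. The ratio was lowest in the pqm-1 double mutant, where the call was lost without replicate 2 at 4 °C (adjusted p = 0.0996 in edgeR).

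C32E8.9 fell in the cold in 3 strains by a modest amount. Its log2 fold change was −0.60 ± 0.14 in the pqm-1 double mutant, −0.69 ± 0.14 in ets-4 and −0.66 ± 0.14 in wt (SE), with adjusted p of 0.00724, 0.00344 and 0.00483 in edgeR. In daf-16; ets-4 it had 2.05 and 2.22 CPM at 4 °C, against 2.50 and 1.96 CPM at 20 °C, a log2 fold change of −0.05 ± 0.16 (SE) that was not called. The call was lost in wt without replicate 2 at 4 °C (adjusted p = 0.0531) and in the pqm-1 double mutant without replicate 1 at 20 °C (0.0682).

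nnt-1 rose in the cold in the pqm-1 double mutant and in ets-4. It had 6.05 and 5.06 CPM at 4 °C, against 2.31 and 3.63 CPM at 20 °C, in the pqm-1 double mutant, and 6.49 and 6.12 CPM at 4 °C, against 3.28 and 2.63 CPM at 20 °C, in ets-4. The log2 fold changes were 0.90 ± 0.29 and 1.09 ± 0.29 (SE), with adjusted p of 0.0309 and 0.0139 in edgeR. In daf-16; ets-4 the value was −0.41 ± 0.31 (SE) and in wt 0.60 ± 0.30 (SE), neither of them called. In pqm-1; ets-4 the call was lost without replicate 1 at 4 °C (adjusted p = 0.198) or replicate 1 at 20 °C (0.135), and in ets-4 without replicate 1 at 4 °C (0.0569) or replicate 2 at 20 °C (0.109).

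C10C5.4 rose in the cold in daf-16; ets-4, ets-4 and wt, by log2 fold changes of 1.39 ± 0.19, 1.30 ± 0.20 and 1.18 ± 0.19 (SE), the largest adjusted p being 8.63e-04 in edgeR. In pqm-1; ets-4 it had 30.2 and 32.5 CPM at 4 °C, against 23.7 and 33.97 CPM at 20 °C, a log2 fold change of 0.12 ± 0.19 (SE) that was not called. Its neighbours of the same name series, C10C5.3 and C10C5.5, rose in the cold in ets-4 by 1.13 and 2.24 and in wt by 1.09 and 1.98 on the log2 scale. C10C5.5 also rose in daf-16; ets-4 (1.63) and in pqm-1; ets-4 (0.97).

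edgeR called neither lea-1 nor col-135 in the cold in any strain in the fit without a block. lea-1 was called as higher in the cold in wt and in the pqm-1 double mutant with the replicate block, by DESeq2 and without the filter on low counts, and in wt also with the size factors of DESeq2. lea-1 had log2 fold changes between 0.39 (daf-16; ets-4) and 0.56 (wt), each with a standard error of 0.21. In col-135 the values lay between −0.35 (the pqm-1 double mutant) and 0.01 (the daf-16 double mutant), and the libraries of the daf-16 double mutant overlapped between the temperatures.

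**Figure D4:**
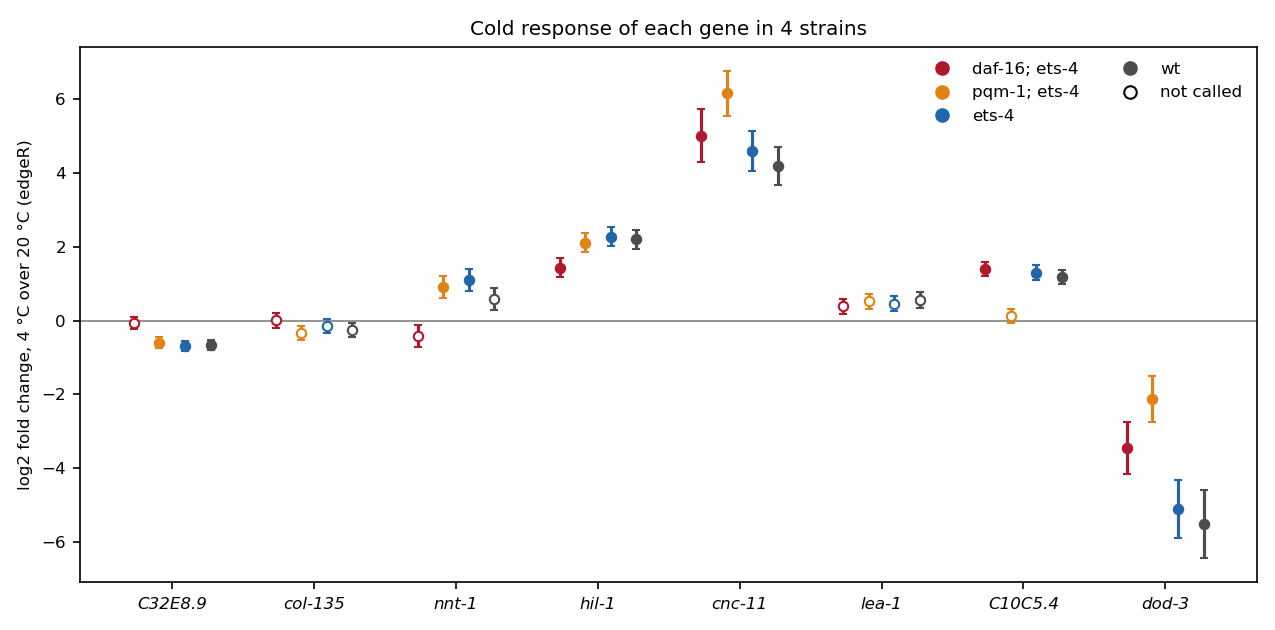
Log2 fold change of 4 °C over 20 °C, with the standard error as a bar, of each of the 8 genes in daf-16; ets-4, pqm-1; ets-4, ets-4 and wt, with open circles where the adjusted p was 0.05 or above. hil-1 and cnc-11 lie above 0 and dod-3 below 0 in all 4 strains, with fitted values of cnc-11 and dod-3 that depend on few counts, and C10C5.4 lies at 0.12 in pqm-1; ets-4 and between 1.18 and 1.39 in the other strains.

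Whether a strain effect differed between temperatures was tested for pqm-1; ets-4 against ets-4 and for ets-4 against wt. The fit used all 16 libraries with a separate replicate block within each temperature. None of the 8 genes passed in edgeR, and DESeq2 was not run for these tests. At an unadjusted p of 0.05, dod-3 and C10C5.4 passed in the contrast with pqm-1 mutated, and 0 genes in ets-4 against wt. The smallest adjusted p in edgeR were 0.135 for dod-3, with a difference of 2.95 ± 0.63 (SE) on the log2 scale, and 0.139 for C10C5.4, with −1.17 ± 0.24 (SE). Of all genes, 0.114% passed an adjusted p of 0.05 for pqm-1; ets-4 against ets-4 and 0.00634% for ets-4 against wt. The share of all genes under the unadjusted p is not given here. For daf-16; ets-4 against ets-4 the difference between temperatures uses the contrast that chose the genes, and was −1.50 ± 0.41 for nnt-1, −0.82 ± 0.22 for hil-1 and 0.64 ± 0.19 for C32E8.9 (SE), as a description.

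Ordered over all 8 groups, the genes fell into few kinds of profile. C32E8.9 and col-135 were lowest in daf-16; ets-4 at both temperatures, and each had overlapping libraries between those temperatures. In hil-1 the 4 groups at 4 °C were in the first 4 places, and the 4 groups at 20 °C overlapped their neighbours. cnc-11 likewise had its 4 cold groups first, and wt and pqm-1; ets-4 at 4 °C overlapped. nnt-1 was highest in ets-4 at 4 °C and lowest in daf-16; ets-4 at 4 °C, which overlapped with daf-16; ets-4 at 20 °C. lea-1 was lowest in daf-16; ets-4 at 20 °C, with daf-16; ets-4 at 4 °C next. In C10C5.4 daf-16; ets-4 at 4 °C was alone at the top, followed by wt and ets-4 at 4 °C without overlap. dod-3 was lowest in wt at 4 °C. Per kilobase of exon, the mean level over the 8 groups was highest for lea-1, with 74.2 CPM per kb, and lowest for nnt-1, with 1.02 CPM per kb.

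Over the 16 libraries, C32E8.9 and col-135 followed each other most closely among all pairs of the 8 genes, with a Pearson correlation of 0.97 of log2 CPM. hil-1 and cnc-11 had 0.90 and nnt-1 and lea-1 had 0.86. dod-3 had −0.77 with cnc-11, −0.72 with C10C5.4 and −0.67 with hil-1, and C32E8.9 and C10C5.4 had −0.66. The libraries share strain, temperature and replicate number, so these are descriptions. Against the mean profile of the 8 genes, lea-1 had 0.96, nnt-1 0.91, C10C5.4 −0.08 and dod-3 −0.30, so the mean profile does not stand for those last genes. The genes outside the group with the most similar profile to that mean were mtl-1, a metallothionein known as a target of DAF-16, with 0.96, then C46G7.5 with 0.96, C25E10.8 with 0.95, ttr-5, of the transthyretin-like family, with 0.94 and E04F6.9 with 0.94. mtl-1 had 0.285 and 0.388 CPM in daf-16; ets-4 at 4 °C, against 10.4 and 8.22 CPM in ets-4, and 0.0927 and 0.176 CPM in daf-16; ets-4 at 20 °C, against 0.600 and 1.58 CPM in ets-4. The mean profile includes the 4 °C libraries that chose the genes. A low level in daf-16; ets-4 at 4 °C was thus partly set by that choice, and likeness to the profile is no test.

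A list of 19 genes known to be raised by DAF-16 under low insulin signalling was read beside the group. It was chosen with earlier results of these data known, so its counts are a description. At 20 °C, 5 of its 15 tested genes fell in daf-16; ets-4 relative to ets-4 and none rose, with a list median of −0.27 and a median over all genes of 0.01 on the log2 scale. The 5 were mtl-1 (−2.95), the lysozyme lys-7 (−2.02), the superoxide dismutase sod-3 (−1.73), the saposin-like spp-1 (−0.58) and the small heat shock gene sip-1 (−0.54). At 4 °C, 6 of 14 fell and none rose, with a list median of −0.57: the 5 genes above and hsp-12.6 (−0.88). Over all genes, 4.34% were called in this contrast at 20 °C, with 0.695% as lower, and 3.86% at 4 °C. sod-3 had 0.285 and 0.638 CPM in daf-16; ets-4 at 4 °C, against 3.79 and 3.82 CPM in ets-4. Without the block, 0 of the 15 were called at 20 °C and 2, mtl-1 and spp-1, at 4 °C. In pqm-1; ets-4 against ets-4 at 20 °C, 1 of the 15 tested genes was higher (lys-8) and 1 lower (spp-1). Of all genes, 9.33% were called there. At 4 °C, 1 of 14 was higher (lys-8) and 2 were lower (ctl-2 and spp-1), whereas 5.90% of all genes were called.

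Of 10 genes known to be lowered by DAF-16, 9 were tested in each of these contrasts. dod-23 was higher in daf-16; ets-4 than in ets-4 at 20 °C, with 114 and 126 CPM against 73.9 and 72.6 CPM, and at 4 °C, with 102 and 108 CPM against 70.1 and 75.8 CPM. At 4 °C dod-22 (−3.10) and dod-24 (−1.04) were lower, opposite to the name of the list. Without the block none of these 3 genes was called at either temperature. Among the other linker histone genes edgeR called none of 8 tested in daf-16; ets-4 against ets-4 at 20 °C, and 1 of 7, hil-2 (0.30), at 4 °C. Among the other caenacins it called none of 6 at either temperature. Of all genes, 4.34% were called at 20 °C and 3.86% at 4 °C. The C10C5.4 relatives C10C5.3 and C10C5.5 were not called either, with log2 fold changes of 0.71 ± 0.34 and 0.64 ± 0.35 at 20 °C and of 0.15 ± 0.19 and −0.01 ± 0.09 at 4 °C (SE).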

How the data were processed

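Poly-A RNA of whole worms was sequenced on 16 libraries. The submitters' processing notes name STAR and WBcel235, and the authors deposited raw counts of unique reads over the exons of protein-coding genes. The 8 genes and all lists were chosen with earlier results of these data known; gene names were matched for 20159 of 20447 identifiers (Ensembl release 115).

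Genes of low count were removed with filterByExpr, leaving 14571 genes at 4 °C, 15405 at 20 °C and 15775 over all libraries. CPM used TMM library sizes. edgeR 4.0.16 (R 4.3.3) quasi-likelihood tests, Benjamini-Hochberg adjusted over all tested genes with a threshold of 0.05, compared strains among the 8 libraries of a temperature, with the replicate number as a block as in the study's fold changes by replicate, and temperatures among all 16 libraries without it. Standard errors were taken as the log2 fold change over the square root of F. Same-numbered libraries deviated together: replicate differences correlated between strains by 0.456 to 0.657 at 4 °C and 0.329 to 0.58 at 20 °C, and between temperatures of a strain by 0.34 to 0.712, over 15775 genes. The temperature fit with the block is given as an alternative. The scripts were tested on simulated data.

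Alternatives were DESeq2 1.42.0, its size factors in edgeR, no filter, other blocks, a 2-fold rule in both replicates (pseudocount 8 or 1) and leaving out each library of the strains compared. The contrasts of daf-16; ets-4 with wt and with pqm-1; ets-4 at 20 °C, and the tests between temperatures, were added after the data were seen. Genes named by likeness were the 5 with the highest Pearson correlation to the mean standardised log2 CPM of the 8 genes. The study calls the replicates biological and, for its cold assays, defines these as separate batches of worms on different days, without naming RNA-seq there. Sequences of the genes were not used here.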

Additional observations from a re-analysis of the deposited data

Results flagged for a closer look

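In 3 cases both replicates of one temperature moved opposite to both of the other. cnc-11 in pqm-1; ets-4 against ets-4 differed between 4 °C and 20 °C by 1.64 on the log2 scale (adjusted p = 0.598 in edgeR, not called), with 2 and 1 counts in pqm-1; ets-4 and 2 and 5 in ets-4 at 20 °C. C10C5.4 in the same contrast differed by −1.17 (adjusted p = 0.139, not called). dod-3 in daf-16; ets-4 against ets-4 differed by 1.71, a difference that was not tested because the 4 °C contrast chose the genes, and that rests on 12 and 3 counts in daf-16; ets-4 and 6 and 2 in ets-4 at 4 °C.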

How the results depend on the processing

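The calls of the 8 genes came to 30 over 11 contrasts, and 150 of 170 checks under the alternatives that keep every library, and 106 of 120 checks that leave out a library, kept both direction and call; none reversed. C32E8.9 and col-135 at 20 °C kept their calls throughout. The replicate block decided most counts of all genes. Without it, edgeR called 4 genes in daf-16; ets-4 against ets-4 at 20 °C (669 with it), 23 at 4 °C (562), 4 in pqm-1; ets-4 against ets-4 at 20 °C (1437), 7 at 4 °C (860, with 0 of the 8 genes), 3 in ets-4 against wt at 20 °C (199), and 0 at 4 °C (1414, with 0 of the 8 genes, 2025 genes under an unadjusted p of 0.05 and 1559 called by DESeq2 with the block). It called 253 in daf-16; ets-4 against wt (5831) and 7 in daf-16; ets-4 against pqm-1; ets-4 (40), both at 20 °C. Adding the block to the cold comparisons changed no count by over 1.5 times, and lea-1 was then called as higher in the cold in wt and pqm-1; ets-4.

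In the fit of all 16 libraries with the block, daf-16; ets-4 against ets-4 had 1546 genes at 20 °C, with 4 of the group (C32E8.9, col-135, lea-1, C10C5.4), and 275 at 4 °C. pqm-1; ets-4 against ets-4 had 2684 genes at 20 °C, with 1 of the group (C10C5.4), and 239 at 4 °C, with 1 (dod-3). ets-4 against wt at 4 °C had 499, with 0 of the group. For daf-16; ets-4 against wt at 20 °C, 6786 of 15775 genes were called, with 5 of the group. DESeq2 called 1178 genes in daf-16; ets-4 against ets-4 at 20 °C, with C10C5.4 beside C32E8.9 and col-135, 377 in ets-4 against wt at 20 °C, with 1 of the group (dod-3), 128 in daf-16; ets-4 against pqm-1; ets-4, and 1 of the group (C10C5.4) in pqm-1; ets-4 against ets-4 at 20 °C. Its size factors in edgeR gave 68 in daf-16; ets-4 against pqm-1; ets-4. No filter gave 76 there and 351 in ets-4 against wt at 20 °C.

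The 2-fold rule with a pseudocount of 8 gave 244 genes in daf-16; ets-4 against ets-4 at 4 °C, 1439 in daf-16; ets-4 against wt, 91 in daf-16; ets-4 against pqm-1; ets-4, 722 and 200 in pqm-1; ets-4 against ets-4 at 20 °C and 4 °C, and 164 in ets-4 against wt at 4 °C, with 1 of the group (dod-3) in pqm-1; ets-4 against ets-4 at 4 °C and in ets-4 against wt at 20 °C, and 0 in ets-4 against wt at 4 °C. In the cold it gave 3067 genes in daf-16; ets-4, 2869 in pqm-1; ets-4, 2478 in ets-4 and 2374 in wt, with 3 of the group (dod-3, hil-1, cnc-11) in each of the last 3. With a pseudocount of 1 it gave 1623 and 895 in daf-16; ets-4 against ets-4 at 20 °C and 4 °C, 2348 against wt, 393 against pqm-1; ets-4, and 647 and 697 in ets-4 against wt at 20 °C and 4 °C, with 1 of the group (dod-3) in pqm-1; ets-4 against ets-4 at 4 °C and in ets-4 against wt at 20 °C and 0 in ets-4 against wt at 4 °C.

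Without each library of the strains compared in turn, the genes called ranged over 6 to 2287 at 20 °C and 72 to 139 at 4 °C in daf-16; ets-4 against ets-4 (2 to 4 of the group at 20 °C), 5 to 3271 and 71 to 2289 in pqm-1; ets-4 against ets-4 (0 to 3 of the group at 4 °C), 14 to 80 and 111 to 1424 in ets-4 against wt (0 to 2 at 4 °C), 873 to 5143 in daf-16; ets-4 against wt (2 to 4) and 27 to 301 in daf-16; ets-4 against pqm-1; ets-4 (2 to 4). In the cold they ranged over 4036 to 4832 in daf-16; ets-4, 3783 to 6455 in pqm-1; ets-4 (3 to 6 of the group), 3398 to 3797 in ets-4 and 3120 to 3258 in wt. A group left with 1 library was assumed to vary like the others, and the cause of these shifts was not tested. With 2 libraries a group, cnc-11 at 20 °C and dod-3 at 4 °C were limited by their counts.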
